A study of Mus musculus with 12 samples.

Results

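Chemokine receptors of mouse macrophages were examined, with the T cell-associated receptor *Cxcr3* among them. The 9 receptors *Cxcr3*, *Cxcr4*, *Ccr1*, *Ccr2*, *Ccr3*, *Ccr7*, *Ccrl2*, *Cx3cr1* and *Ackr3* were taken by gene symbol from the 48526 genes of the count table, and each was found once. RNA-seq reads had been counted per gene in bone marrow-derived macrophages (BMDMs), which are macrophages grown from whole marrow with macrophage colony-stimulating factor (10 ng/mL mCSF). All marrow came from female C57Bl/6J mice with no other allele named, and marrow donors were 6 to 20 weeks old by the methods, which give no age per mouse. The cells were used on day 7, and a 16-hour treatment gave 4 labelled groups from the same 3 mice: untreated, 100 pg/mL IL-4, 100 ng/mL Wnt3a, and both proteins together. Every library was a bulk culture, so fewer cells of a type and less RNA per cell cannot be told apart.

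The Wnt3a and Wnt3a+IL4 columns of a mouse shared reads. In each of the 3 mice, 0 of 48526 genes had fewer reads in the Wnt3a column than in the Wnt3a+IL4 column, and 0 had more than 2 times as many. Both columns were therefore separated into a difference (Wnt3a minus Wnt3a+IL4) and a remainder (2 times Wnt3a+IL4 minus Wnt3a), and these were compared with the untreated and IL-4 libraries. The labels do not say which of them came from cells given Wnt3a alone and which from cells given both proteins, and no value below was used to decide it. The 12 resulting libraries held 13342492 to 17453377 counted reads each. Levels are given as CPM, the reads of a gene scaled to a common library size after TMM normalisation, and p-values measure only the spread between the 3 mice.

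Chemokine receptors are G protein-coupled receptors with 7 membrane-spanning helices. On binding a chemokine they act through inhibitory G proteins on cell shape and direction of movement, whereas atypical members such as *Ccrl2* and *Ackr3* bind chemoattractants without G protein signalling and present or remove them. In monocytes and macrophages, *Ccr2* is known for release from marrow and entry into inflamed tissue, *Cx3cr1* marks patrolling monocytes and many resident macrophages, and *Ccr7* guides cells toward lymphatic vessels.

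Of the 9 receptors, 5 lay on chromosome 9 of mm10. *Ccr1* (ENSMUSG00000025804, chr9:123962124-123968692), *Ccr3* (ENSMUSG00000035448, chr9:124021972-124031689) and *Ccr2* (ENSMUSG00000049103, chr9:124101950-124113557) stood in a run of 8 receptor genes spanning 469 kb. *Cx3cr1* (ENSMUSG00000052336, chr9:119901616-120069879) and *Ccrl2* (ENSMUSG00000043953, chr9:111054486-111057519) lay outside that run. *Cxcr3* (ENSMUSG00000050232) was at chrX:101731535-101734269, *Ccr7* (ENSMUSG00000037944) at chr11:99144196-99155077, *Cxcr4* (ENSMUSG00000045382) at chr1:128588199-128592293 and *Ackr3* (ENSMUSG00000044337) at chr1:90203980-90216751. Of all 50-base stretches of exon, 1.91% in *Ccr2* recurred in other genes, and 1.06% in *Cx3cr1* recurred in *Gm33858*, a gene on the opposite strand that covered 1.73% of its exon bases. The other 7 receptors had 0% of such stretches elsewhere.

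Bases from the 250 before the transcription start are shown for *Cxcr3*, the X-linked receptor that fell. They are also shown for 2 neighbours of the chromosome 9 run, *Ccr1*, which rose, and *Ccr3*, which passed no test. The start sites are those of RefSeq on GRCm38.p6, and only bases outside annotated exons are printed. In *Cxcr3* this leaves out the bases nearest the RefSeq start. The *Cxcr3* stretch is chrX:101734270-101734397 on the minus strand, the *Ccr1* stretch chr9:123968693-123968942 on the minus strand, and the *Ccr3* stretch chr9:124021721-124021970 on the plus strand. Capitals mark the letters GAGGAA, the core bound by the macrophage factor PU.1, and in *Ccr3* also an NF-kB match that overlaps it.
Cxcr3: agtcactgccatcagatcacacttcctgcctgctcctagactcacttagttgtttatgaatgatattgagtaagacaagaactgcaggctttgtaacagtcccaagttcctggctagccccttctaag
Ccr1: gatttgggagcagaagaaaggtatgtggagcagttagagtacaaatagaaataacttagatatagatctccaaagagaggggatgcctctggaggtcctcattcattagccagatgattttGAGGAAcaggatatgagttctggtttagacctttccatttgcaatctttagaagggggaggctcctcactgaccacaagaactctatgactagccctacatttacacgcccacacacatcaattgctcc
Ccr3: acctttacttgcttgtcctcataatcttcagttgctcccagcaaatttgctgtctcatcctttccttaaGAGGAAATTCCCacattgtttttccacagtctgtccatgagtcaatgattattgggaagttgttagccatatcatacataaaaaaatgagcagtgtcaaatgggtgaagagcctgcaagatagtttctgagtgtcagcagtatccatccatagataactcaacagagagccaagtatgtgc

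RefSeq promoters were matched for 8 of the 9 receptors, at 10 start sites, all but *Ccr7*. The 250 bases before each start were searched on both strands for TTC and GAA separated by 4 bases (STAT6) or by 3 bases (other STAT proteins), for CTTTGAT (TCF/LEF) and for the NF-kB motif, and for GAGGAA, which was added after the expression values had been seen. None of the 10 windows held either STAT motif or the TCF/LEF motif, which stood in 5.85%, 7.02% and 3.21% of 32851 promoters. Some windows ran into annotated exons of their own gene. Counted from the end far from the start, an exon began after 0 bases in *Cx3cr1*, 17 in *Ccr2* and 128 in *Cxcr3*. In the 3 *Ccrl2* windows it began after 249, 1 and 0 bases. All 250 bases lay outside exons in *Cxcr4*, *Ccr1*, *Ccr3* and *Ackr3*. The NF-kB motif was found in *Ccr3* alone and in 0.356% of all promoters. GAGGAA was found before *Cxcr3*, *Ccr1* and *Ccr3*, and in 23.3% of all promoters; in *Cxcr3* it began 14 bases before the RefSeq start, inside an annotated exon, and is not in the printed stretch.

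In untreated cells, *Cxcr4*, the receptor of Cxcl12 that holds blood cell precursors in marrow, was the most abundant of the 9 per length of transcript, at 287 ± 8.74 CPM per kb of exon (SD, n = 3). *Cx3cr1*, the receptor of the membrane-bound chemokine fractalkine, followed at 67.2 ± 3.32 CPM per kb. *Ccrl2* at 10.3 ± 0.548 and *Cxcr3* at 8.04 ± 0.481 CPM per kb came next, and their ranges did not overlap. *Ccr2* averaged 3.42 ± 1.78 CPM per kb, *Ccr1* 0.807 ± 0.166, *Ccr3* 0.396 ± 0.151 and *Ccr7* 0.130 ± 0.0574. *Ccr2* stood above *Ccr1* in all 3 mice, *Ccr1* above *Ccr3* in all 3, and *Ccr3* above *Ccr7* in all 3. *Ackr3*, an atypical scavenger of Cxcl12, had 0 reads in all 12 libraries, which allows up to 3 reads or 0.161 to 0.218 CPM per library by counting error alone. It was the single receptor of the 9 that did not pass the low-count filter (at least 10 reads in at least 3 libraries).

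**Figure D1:**
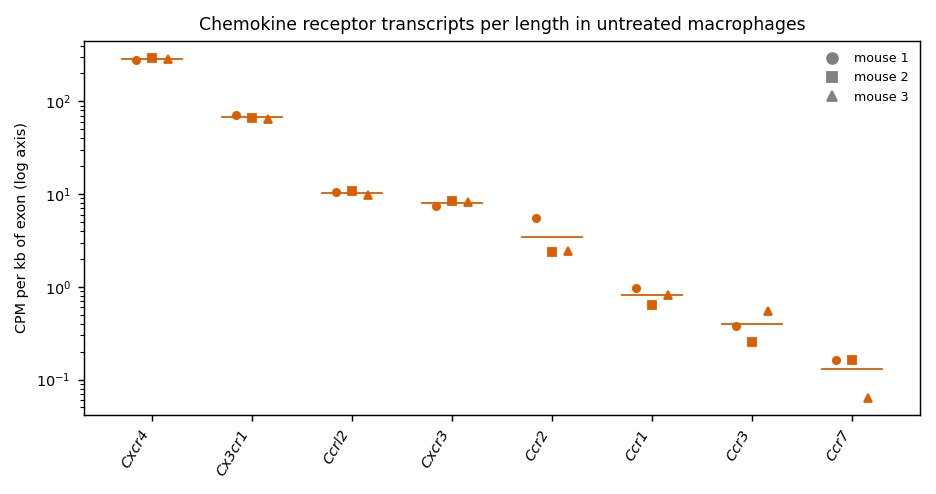
Transcript level of 8 of the 9 receptors in untreated BMDMs, in CPM per kb of exon on a log axis; symbols are the 3 mice, and horizontal lines their mean, with *Ackr3*, which had 0 reads, left out. *Cxcr4* and *Cx3cr1* stood above the other 6, at 287 and 67.2 CPM per kb.

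Among chemokine receptors outside the 9, *Ccr10* also passed the filter, lay between 0.575 and 1.74 CPM in all libraries and passed no comparison.

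All 7 macrophage markers were expressed, with a summed level of 43592 to 67676 CPM, led by *Lyz2*. The T cell genes *Cd3e*, *Cd3g* and *Cd8a* had between 0 and 2 reads summed over the 3 libraries of any group, and the NK cell genes *Ncr1* and *Eomes* had 0, while the NK cell gene *Klrb1c* had 2 to 6. Among IL-4 target genes, *Mgl2* was at 0.752 to 0.878 CPM untreated, 10.8 to 12.1 with IL-4, 0.183 to 0.800 in the difference and 3.13 to 6.02 in the remainder. *Arg1* was at 1.37 to 1.66 CPM with IL-4 and 5.96 to 25.0 in the remainder, with at most 0.129 in the other libraries. The Wnt target *Axin2* reached 0.553 to 0.854 CPM in the remainder and at most 0.364 elsewhere. It is 1 of 3 listed Wnt target genes, none of which passed the low-count filter, so its level was not tested. Of these genes, 2 had 0 reads in the difference and 1 had 0 in the remainder. Across 12421 tested genes, the share of calls that were higher than untreated was 68.0% for IL-4, 50.7% for the difference and 53.8% for the remainder; scaling by total counts made it 53.8%, 33.6% and 35.6%.

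Against untreated cells, IL-4 alone changed 3 of the 8 testable receptors at an adjusted p under 0.05 (edgeR quasi-likelihood test, Benjamini-Hochberg over all tested genes), 1 higher and 2 lower, beside 3.40% of all tested genes (2.31% higher, 1.09% lower). The difference libraries changed 4 of 8, 3 higher and 1 lower, beside 23.2% of genes (11.8% higher, 11.4% lower). The remainder changed 5 of 8, 3 higher and 2 lower, beside 25.3% of genes (13.6% higher, 11.7% lower). The median log2 change of the 8 receptors was 0.21, 0.31 and 0.19 in the 3 comparisons, and that of all genes was 0.00, -0.01 and -0.02. *Ccr7* passed the low-count filter only through the difference and remainder libraries, so its change there is a description. Without it, the counts were 3, 3 and 4 of 7, and the medians -0.14, 0.25 and 0.11. The CPM ranges of the groups did not overlap for 5, 6 and 5 of the 8 receptors, beside 19.8%, 39.2% and 35.6% of genes. The 3 comparisons share their untreated libraries.

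**Figure D2:**
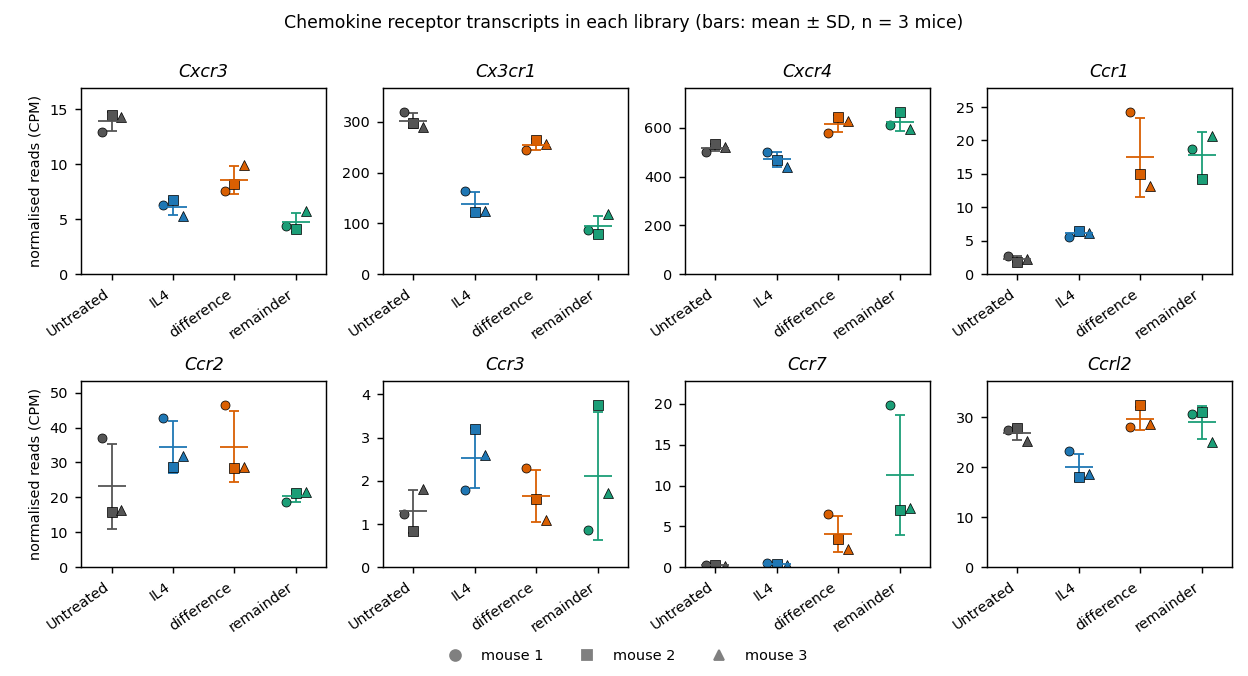
Normalised reads (CPM, linear axis from 0) of 8 receptors in each library; symbols are mice, horizontal bars the group mean and error bars the SD of 3 mice. *Cxcr3* and *Cx3cr1* were lowest in the remainder, *Ccr1* and *Ccr7* were higher in the difference and remainder than in the other groups, and *Ccr2* of mouse 1 stood above the other mice in 3 of 4 groups.

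*Cxcr3*, the receptor of the interferon-induced chemokines Cxcl9, Cxcl10 and Cxcl11, fell in each treated group. Its level was 12.95, 14.5 and 14.3 CPM in untreated cells of mice 1, 2 and 3, and 6.29, 6.77 and 5.34 CPM with IL-4. The difference libraries held 7.55, 8.18 and 9.96 CPM, and the remainder 4.35, 4.12 and 5.72 CPM. Every treated library thus lay below every untreated one, the remainder was the lowest group, and its range overlapped only that of IL-4. Against untreated cells, the fall was 2.26-fold with IL-4 (log2 fold change -1.18 ± 0.16 (SE), adjusted p = 0.000466), 1.63-fold in the difference (-0.70 ± 0.15, adjusted p = 0.00379) and 2.94-fold in the remainder (-1.56 ± 0.16, adjusted p = 5.90e-06). Relative to its own untreated library, a mouse kept 37.3 to 48.6% of *Cxcr3* with IL-4, 56.5 to 69.7% in the difference and 28.4 to 40.0% in the remainder. The remainder was also below the difference (-0.85 ± 0.16, adjusted p = 0.00657), in 3 of 3 mice, and without mouse 3 this difference was -0.89 with adjusted p = 0.0832. The remainder and IL-4 differed by -0.38 (95% confidence interval -0.74 to -0.02, adjusted p = 0.128). The difference exceeded IL-4 by 0.47 ± 0.16, adjusted p = 0.0497, and adjusted p was 0.0773, 0.0838 and 0.428 without mouse 1, 2 or 3 and 0.0650 with mouse as a block.

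*Cxcr3* is best known from T cells and NK cells. *Cd3e*, *Cd3g* and *Cd8a* had 0 reads in the untreated libraries, and *Ncr1* and *Eomes* had 0 reads in all libraries. *Klrb1c*, the third NK cell marker, had 6 reads summed over the untreated libraries, 2 with IL-4, 3 in the difference and 5 in the remainder, at most 0.251 CPM in a library, and its part in the *Cxcr3* level was not tested. *Cd4*, which some macrophages also express, was at 3.65 to 4.18 CPM untreated, 1.80 to 2.62 with IL-4, 2.69 to 5.45 in the difference and 2.56 to 5.10 in the remainder, and it passed no test against untreated cells. The part of T cells in the *Cxcr3* level was not tested. Over the 12 libraries, the genes whose log2 level followed *Cxcr3* most closely, of 9293 genes that averaged 5 CPM or more, were *Klhl6* (Pearson r = 0.96), *Il17ra* (0.94), *Nlrp3* (0.94), *Mid1ip1* (0.94) and *Slc11a1* (0.93). *Cx3cr1* was the next gene in that order (r = 0.93). These libraries share mice and treatments, so the coefficients describe a shared order of levels among groups.

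*Cx3cr1* fell with IL-4 and in the remainder, while its decrease in the difference did not pass the test. The untreated libraries held 319, 299 and 290 CPM, and those with IL-4 held 165, 123 and 124 CPM. The difference libraries held 244, 265 and 256 CPM, and the remainder 86.3, 79.0 and 118 CPM. The 4 groups did not overlap in any pair, with untreated highest, then the difference, IL-4 and the remainder. IL-4 lowered it 2.20-fold (log2 fold change -1.14 ± 0.14, adjusted p = 0.000223), and the remainder was 3.21-fold below untreated (-1.68 ± 0.14, adjusted p = 7.87e-07). The difference was lower in 3 of 3 mice without passing the test (-0.25, 95% confidence interval -0.54 to 0.04, adjusted p = 0.212). It passed where only the groups compared were fitted (-0.24, adjusted p = 0.0493). The Wnt3a column as deposited gave -0.60 (adjusted p = 0.000258). That column also holds the reads of the remainder, so it does not test the difference alone. The remainder was 2.71-fold below the difference (-1.44 ± 0.14, adjusted p = 3.42e-05). The remainder was also below IL-4 (-0.54 ± 0.14, adjusted p = 0.0115), a call that was lost without mouse 1 (-0.34, adjusted p = 0.183). The Wnt3a+IL4 column as deposited was above IL-4 (0.34, adjusted p = 0.0161). That column also holds the reads of the difference, so it does not test the remainder alone. The difference was above IL-4 by 0.89 ± 0.14 (adjusted p = 0.000252).

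**Figure D3:**
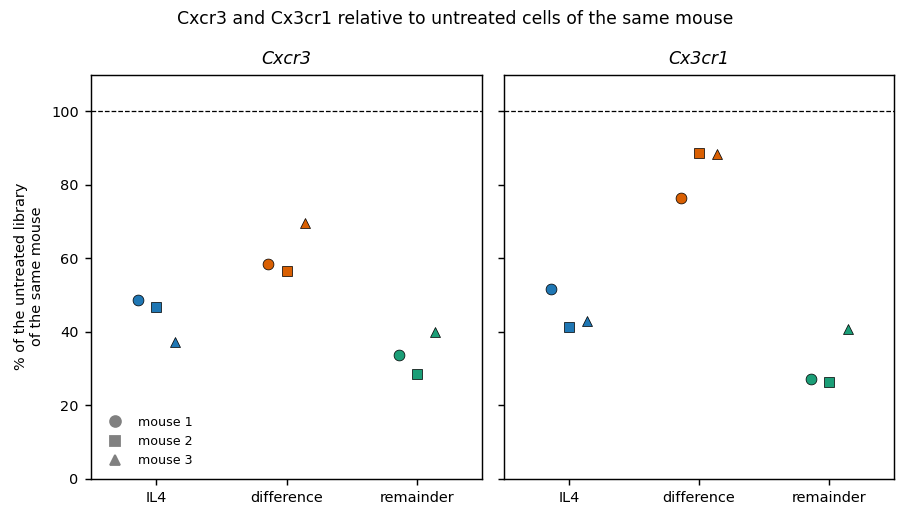
*Cxcr3* (left) and *Cx3cr1* (right) as a percentage of the untreated library of the same mouse (linear axis from 0, dashed line at 100%); symbols are the 3 mice. In the difference libraries *Cx3cr1* stayed at 76.4 to 88.7% while *Cxcr3* lay at 56.5 to 69.7%, and in the remainder the values were 26.4 to 40.6% and 28.4 to 40.0%.

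Monocyte markers moved with these levels in part. *F13a1*, which is abundant in classical monocytes, was at 52.8 to 76.5 CPM untreated, 29.1 to 44.4 with IL-4, 50.1 to 88.8 in the difference and 12.3 to 24.8 in the remainder. It fell in the remainder against untreated cells (log2 fold change -1.67 ± 0.26, adjusted p = 0.000249), and with IL-4 its adjusted p was 0.143. *Ly6c2* was at 1.07 to 1.35 CPM untreated and 1.37 to 2.10 with IL-4 (adjusted p = 0.420), and it rose to 10.6 ± 1.28 CPM in the difference (3.16 ± 0.21, adjusted p = 1.36e-07) and 5.72 ± 0.863 in the remainder (2.27 ± 0.21, adjusted p = 2.85e-06). Neither was at 0 in any library. Their part in the changes of *Cx3cr1*, *Cxcr3* and *Ccr2* was not tested.

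*Ccr1*, a receptor of the inflammatory chemokines Ccl3 and Ccl5, rose in each treated group. Untreated cells held 2.74, 1.80 and 2.32 CPM, and IL-4 libraries 5.63, 6.52 and 6.13 CPM. The difference libraries held 24.2, 15.0 and 13.2 CPM and the remainder 18.8, 14.2 and 20.7 CPM. Untreated and IL-4 libraries formed separate ranges below those of the difference and remainder, which overlapped each other. The rise was 2.64-fold with IL-4 (log2 fold change 1.40 ± 0.26, adjusted p = 0.00671), 7.59-fold in the difference (2.92 ± 0.25, adjusted p = 1.14e-06) and 7.74-fold in the remainder (2.95 ± 0.25, adjusted p = 8.24e-07). The IL-4 call was lost without mouse 2 (1.19, adjusted p = 0.0528) or mouse 3 (1.39, adjusted p = 0.139). Against IL-4, *Ccr1* was higher by 1.52 ± 0.22 in the difference (adjusted p = 0.000161) and by 1.55 ± 0.22 in the remainder (adjusted p = 0.000163). The remainder and difference themselves were 0.03 apart (95% confidence interval -0.41 to 0.47, adjusted p = 0.958).

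*Ccr2*, the receptor of Ccl2 that brings monocytes into tissue, stands 70.3 kb from *Ccr3*. Its level in mouse 1 stood apart from the other mice. Mouse 1 held 37.0 CPM untreated, 42.7 with IL-4, 46.4 in the difference and 18.6 in the remainder. Mouse 2 held 15.9, 28.7, 28.5 and 21.1 CPM, and mouse 3 held 16.4, 31.9, 28.7 and 21.5 CPM in the same order. Mouse 1 was thus highest in 3 groups and lowest in the remainder, and the SD of the untreated group was 52.1% of its mean. No comparison passed the test: the log2 change against untreated was 0.57 ± 0.28 with IL-4 (adjusted p = 0.394), 0.57 ± 0.28 in the difference (adjusted p = 0.167) and -0.19 ± 0.29 in the remainder (adjusted p = 0.683). Without mouse 1 all 3 passed it, at 0.91 (adjusted p = 0.00246), 0.82 (adjusted p = 0.000826) and, with the sign turned, 0.40 (adjusted p = 0.0381). The remainder was below IL-4 in 3 of 3 mice (-0.76 ± 0.29, adjusted p = 0.0809), and this passed with mouse as a block (-0.70, adjusted p = 0.0390) and without mouse 1 (-0.51, adjusted p = 0.0125).

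*Ccr3*, the eotaxin receptor of eosinophils, was rare. Its libraries held 13 to 29 reads untreated, 30 to 50 with IL-4, 15 to 40 in the difference and 14 to 61 in the remainder. In CPM these were 1.24, 0.836 and 1.82 untreated, 1.80, 3.20 and 2.598 with IL-4, 2.29, 1.59 and 1.09 in the difference, and 0.869, 3.75 and 1.71 in the remainder. The remainder of mouse 2 alone exceeded the IL-4 libraries, and all groups overlapped the untreated one. With IL-4 the level was higher in 3 of 3 mice without passing the test (log2 fold change 0.96 ± 0.46, 95% confidence interval -0.03 to 1.94, adjusted p = 0.365). Against untreated cells the difference was at 0.37 (adjusted p = 0.627) and the remainder at 0.70 (adjusted p = 0.295), which became -0.23 (adjusted p = 0.737) without mouse 2. Of the 4 eosinophil markers, *Il5ra* had 0 reads in all libraries and *Epx* 1 read over all of them. *Prg2* had reads in each of the 4 groups and is part of the summed level. *Siglecf*, which some macrophages also express, was at 0.386 to 0.564 CPM untreated and 1.59 to 3.84 with IL-4 (log2 fold change 2.53 ± 0.37, adjusted p = 0.000923). *Siglecf* had under 10 reads in every untreated library and passed the filter only through other groups, so this change is a description. The summed level of the 4 was 0.450 to 0.627 CPM untreated, 2.16 to 3.84 with IL-4, 0.458 to 1.09 in the difference and 1.30 to 1.97 in the remainder, and its part in the *Ccr3* level was not tested.

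**Figure D4:**
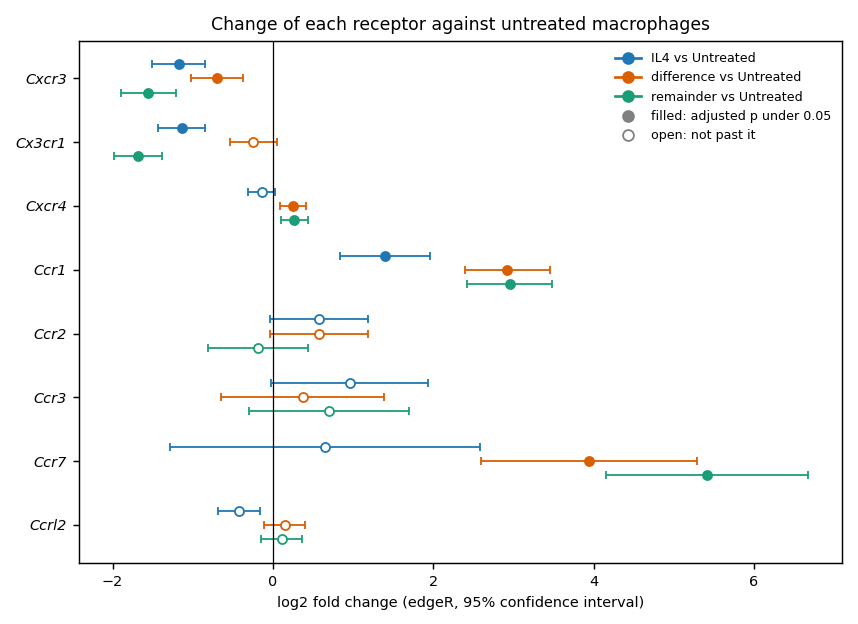
Log2 fold change of 8 receptors against untreated BMDMs in the edgeR fit, with 95% confidence intervals; colours are IL-4, difference and remainder, and filled points have an adjusted p under 0.05. *Cxcr3* lay below 0 in all 3 comparisons (-1.18, -0.70 and -1.56), *Ccr1* above 0 in all 3, and *Ccr7* reached 3.94 and 5.41 in the difference and remainder.

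*Ccr7*, the receptor of Ccl19 and Ccl21, was nearly undetected outside the difference and remainder. Untreated libraries held 6, 5 and 2 reads, IL-4 libraries 8, 7 and 4, the difference 113, 56 and 31, and the remainder 319, 113 and 110. In CPM these were 0.322, 0.322 and 0.125, then 0.479, 0.447 and 0.289, then 6.47, 3.42 and 2.25, and then 19.8, 6.94 and 7.23. Untreated and IL-4 ranges overlapped, both lay below the difference, and the remainder was highest in each mouse. With at most 8 reads in any untreated or IL-4 library, *Ccr7* was tested only because of the groups where it was high, and its fold changes against those libraries rest on few reads. The fitted change of *Ccr7* was 15.4-fold in the difference (log2 fold change 3.94 ± 0.63, adjusted p = 0.000388) and 42.5-fold in the remainder (5.41 ± 0.59, 95% confidence interval 4.15 to 6.67, adjusted p = 1.01e-05). IL-4 left it at 0.65 (95% confidence interval -1.29 to 2.58, adjusted p = 0.828), an interval that the few reads made wide. The remainder exceeded the difference 2.76-fold in 3 of 3 mice (1.47 ± 0.40), just short of the test (adjusted p = 0.0515). With mouse as a block it passed (1.44, adjusted p = 0.00146), as it did without mouse 1 (1.31, adjusted p = 0.0267) or mouse 2 (1.62, adjusted p = 0.0430).

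*Ccr7* is also a mark of mature dendritic cells. Of 5 dendritic cell markers, *Flt3* and *Clec9a* had at most 10 reads summed over a group, and *Cd209a* had 55 reads summed over the untreated libraries and 0 in the difference. *Cd209a* was called lower than untreated in both the difference and the remainder. With 0 reads in the difference, it passed the low-count filter only through other groups, so both falls are given as a description. *Fscn1*, an actin-bundling protein of mature dendritic cells, rose from 0.269 to 0.965 CPM untreated to 3.34 to 4.82 in the difference (log2 fold change 2.95 ± 0.38, adjusted p = 6.60e-05) and 5.72 to 11.3 in the remainder (3.87 ± 0.37, adjusted p = 3.20e-06). *Zbtb46* rose in the remainder alone among the comparisons with untreated cells (1.56 ± 0.41, adjusted p = 0.0113). The summed level of the 5 was 1.76 to 2.51 CPM untreated, 2.52 to 2.68 with IL-4, 3.85 to 5.68 in the difference and 6.90 to 12.5 in the remainder, and its part in the *Ccr7* level was not tested.

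*Cxcr4* rose slightly in both the difference and remainder libraries. Untreated cells held 503, 535 and 520 CPM, IL-4 libraries 501, 470 and 440, the difference 580, 644 and 629, and the remainder 614, 664 and 595. All 6 difference and remainder libraries lay above all untreated and IL-4 libraries. The rise was 1.19-fold in the difference (log2 fold change 0.25 ± 0.08, adjusted p = 0.0304) and 1.20-fold in the remainder (0.27 ± 0.08, adjusted p = 0.0210). Neither held without mouse 2 (0.24, adjusted p = 0.156, and 0.25, adjusted p = 0.0911) or mouse 3 (0.24, adjusted p = 0.215, and 0.31, adjusted p = 0.127). Scaling by total counts moved the median of all genes to -0.10 (difference) and -0.13 (remainder), while *Cxcr4* stood at 0.16 in both (adjusted p = 0.0759 and 0.0726). IL-4 gave -0.14 (95% confidence interval -0.31 to 0.02, adjusted p = 0.444). Above IL-4, *Cxcr4* was higher by 0.39 ± 0.08 in the difference (adjusted p = 0.00191) and by 0.41 ± 0.08 in the remainder (adjusted p = 0.00162), and both calls were lost without mouse 3 (0.35, adjusted p = 0.0912, and 0.42, adjusted p = 0.0541).

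*Ccrl2*, the atypical receptor that presents the chemoattractant chemerin, was lowest with IL-4. Untreated libraries held 27.5, 27.9 and 25.2 CPM, IL-4 libraries 23.1, 18.1 and 18.7, the difference 28.1, 32.4 and 28.7, and the remainder 30.7, 31.1 and 25.1. The 3 IL-4 libraries lay below all 9 others. The change with IL-4 did not pass the test (log2 fold change -0.43, 95% confidence interval -0.68 to -0.17, adjusted p = 0.0776), although DESeq2 called it (adjusted p = 0.0303). Against IL-4, the difference was higher by 0.57 ± 0.12 (adjusted p = 0.00307) and the remainder by 0.53 ± 0.12 (adjusted p = 0.00540). The first was lost without mouse 2 (0.45, adjusted p = 0.0590) or mouse 3 (0.57, adjusted p = 0.0530), and the second without mouse 2 (0.44, adjusted p = 0.0531). Chemerin itself, *Rarres2*, had 1 read in the untreated libraries and 0 in the others.

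Between the libraries that had seen Wnt3a, the remainder differed from the difference in 2 of 8 receptors, *Cxcr3* and *Cx3cr1*, both lower, beside 5.25% of all tested genes (2.87% higher, 2.38% lower). Without mouse 3, *Cx3cr1* alone passed. The ranges did not overlap for 4 receptors, beside 22.4% of genes. Against IL-4, the difference changed 6 of 8 receptors, all higher, beside 20.3% of genes (10.0% higher, 10.3% lower), and without mouse 3 it changed 3. The ranges did not overlap for 6 receptors, beside 38.6% of genes. The remainder changed 5 of 8 against IL-4, 4 higher (*Ccr1*, *Ccr7*, *Ccrl2* and *Cxcr4*) and *Cx3cr1* lower, beside 20.3% of genes (10.6% higher, 9.67% lower). Here too the ranges did not overlap for 6 receptors, beside 35.9% of genes. Without *Ccr7* the 2 counts against IL-4 were 5 and 4 of 7.

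**Figure D5:**
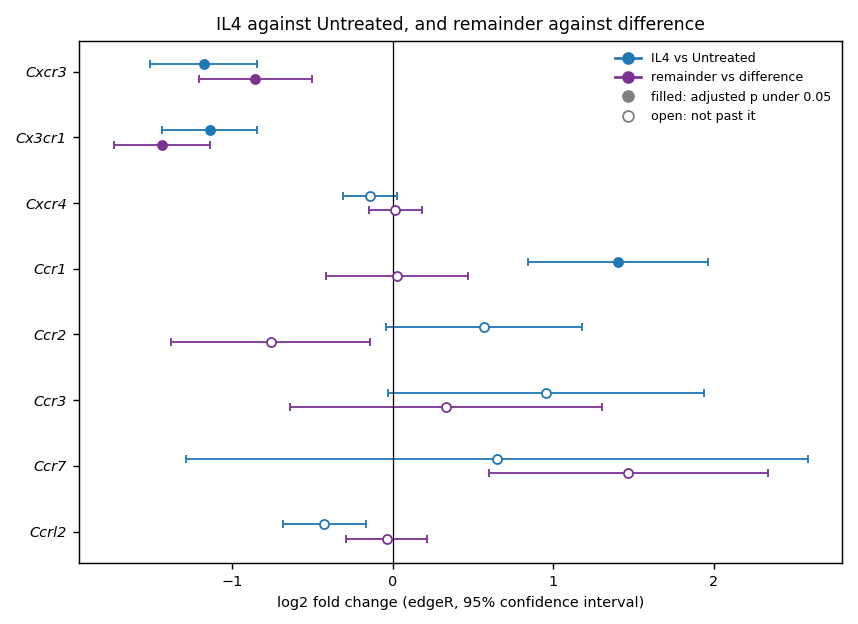
Log2 fold change of 8 receptors for IL-4 against untreated (blue) and for the remainder against the difference (purple), 2 comparisons with no library in common, with 95% confidence intervals; filled points have an adjusted p under 0.05. *Cxcr3* (-1.18 and -0.85) and *Cx3cr1* (-1.14 and -1.44) lay below 0 in both, and *Ccr1* was at 1.40 in the first and 0.03 in the second.

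The interaction of IL-4 with Wnt3a was tested under both ways of assigning the difference and the remainder. With the remainder read as cells given both proteins, edgeR called 0 of 8 receptors and 0.105% of all genes (0.0403% higher, 0.0644% lower); 3 receptors had an unadjusted p under 0.05, and DESeq2 called 1, *Ccr1*. The IL-4 effect on *Cxcr3* was then 0.32 less negative beside Wnt3a (95% confidence interval -0.16 to 0.80, adjusted p = 0.606), and on *Cx3cr1* the difference was -0.30 (-0.71 to 0.12, adjusted p = 0.569). For *Ccr1* it was -1.37 (-2.09 to -0.66, adjusted p = 0.132). For *Ccr2* it was -1.33 (-2.20 to -0.46, adjusted p = 0.216), and without mouse 1 it passed (-1.33, adjusted p = 0.0430). With the difference read as cells given both proteins, 3 of 8 receptors passed beside 7.33% of genes (2.91% higher, 4.42% lower): *Cxcr3* (2.03 ± 0.22, adjusted p = 4.54e-05), *Cx3cr1* (2.57 ± 0.20, adjusted p = 1.39e-06) and *Ccr1* (-1.43 ± 0.33, adjusted p = 0.0166). The *Ccr1* call was lost without mouse 3 (-1.14, adjusted p = 0.321). *Ccr7* was at -2.11 (-4.26 to 0.03, adjusted p = 0.275) and passed with mouse as a block (-2.11, adjusted p = 0.0306).

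Ligands of these receptors were also measured. Of 22 listed ligands, 15 were testable; IL-4 lowered 2 and raised 0, the difference raised 5 and lowered 3, and the remainder raised 11 and lowered 4, beside 3.40%, 23.2% and 25.3% of all tested genes called. Of the 15, *Ccl8*, *Ccl12*, *Ccl24* and *Cxcl9* had under 10 reads in every untreated and IL-4 library and passed the filter only through the other groups. Without these 4, the difference raised 4 and lowered 3 of 11, and the remainder raised 7 and lowered 4. *Cxcl12* is among the lowered in both, although it had under 10 reads in each difference and remainder library. It passed the filter only through the untreated and IL-4 libraries, so its fall is a description. The median log2 change of the 15 was 0.19, 0.51 and 1.74, and that of the 11 was -0.02, 0.23 and 0.64, beside 0.00, -0.01 and -0.02 over all genes. *Ccl5*, which binds Ccr1 and Ccr3, went from 10.4 to 13.2 CPM untreated to 2087 to 2373 in the difference (log2 fold change 7.52 ± 0.18, adjusted p = 5.44e-12) and 1602 to 2432 in the remainder (7.38 ± 0.18, adjusted p = 6.49e-12). IL-4 lowered *Ccl3*, the other main Ccr1 ligand, from 72.0 to 75.6 CPM to 35.8 to 39.7 (-0.95 ± 0.12, adjusted p = 0.000296), and it was also lower in the difference (-1.30 ± 0.12, adjusted p = 2.68e-06) and remainder (-1.78 ± 0.12, adjusted p = 1.36e-07).

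Among the Cxcr3 ligands, *Cxcl10* fell with IL-4 (8.99 ± 3.27 to 4.04 ± 0.879 CPM, log2 fold change -1.16 ± 0.28, adjusted p = 0.0338). *Cxcl9* was at -1.28 (adjusted p = 0.260) and *Pf4* at 0.43 (adjusted p = 0.565) in that comparison. In the difference, *Cxcl9* rose from 0.377 ± 0.0588 CPM to 1.61 ± 0.0972 (2.07 ± 0.31, adjusted p = 0.000230) and *Pf4* from 11.1 ± 0.613 CPM to 57.9 ± 22.03 (2.39 ± 0.28, adjusted p = 2.95e-05), while *Cxcl10* was at -0.30 (adjusted p = 0.458). In the remainder, *Cxcl10* was lower (-1.12 ± 0.28, adjusted p = 0.00795), and *Cxcl9* (1.74 ± 0.32, adjusted p = 0.00100) and *Pf4* (2.84 ± 0.29, adjusted p = 5.33e-06) were higher. Differences between ligands were not tested. *Cx3cl1*, the membrane-bound ligand of Cx3cr1, fell from 3.60 ± 0.366 CPM to 1.17 ± 0.181 in the difference (-1.61 ± 0.28, adjusted p = 0.000754) and 1.30 ± 0.603 in the remainder (-1.46 ± 0.27, adjusted p = 0.00122). *Cxcl12*, the Cxcr4 ligand, was at 0.591 to 1.22 CPM untreated and at most 0.197 in the difference and remainder, where each library held 1 to 3 reads. The Ccr2 ligand *Ccl12* rose from 0.393 ± 0.120 to 3.495 ± 1.02 CPM in the remainder (3.11 ± 0.48, adjusted p = 0.000250), and *Ccl8* was at most 0.125 CPM untreated, below the level of 3 reads, and 2.83 to 5.12 in the remainder. *Cxcl9*, *Ccl12* and *Ccl8* passed the filter only through the groups where they were high, so their rises are descriptions.

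Of 32 transducers and regulators of receptor signalling, 31 were testable. IL-4 lowered 3 and raised 0, the difference lowered 8 and raised 1, and the remainder lowered 12 and raised 1, beside the same 3.40%, 23.2% and 25.3% of all tested genes called. The median log2 changes were -0.11, -0.11 and -0.21, beside 0.00, -0.01 and -0.02 over all genes. *Rgs1*, which ends Gi signalling, fell from 26.3 ± 6.72 CPM to 15.1 ± 2.34 with IL-4 (-0.81 ± 0.21, adjusted p = 0.0483), 7.92 ± 2.12 in the difference (-1.73 ± 0.22, adjusted p = 4.75e-05) and 8.22 ± 1.43 in the remainder (-1.68 ± 0.22, adjusted p = 4.92e-05). *Elmo1*, which couples chemokine receptors to Rac, fell in the difference (-0.91 ± 0.08, adjusted p = 2.68e-06) and remainder (-1.22 ± 0.08, adjusted p = 1.49e-07), as did *Rgs18* (-1.003, adjusted p = 0.0205, and -0.86, adjusted p = 0.0384). With IL-4, the G protein subunit *Gng2* (-0.43, adjusted p = 0.00551) and the arrestin *Arrb2* (-0.30, adjusted p = 0.0479) fell. The single transducer that rose was *Pik3r6*, a regulatory subunit of PI3-kinase gamma (0.58 and 0.55, adjusted p = 0.00191 and 0.00252).

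Of 12 other chemoattractant receptors, all testable, IL-4 raised 1 and lowered 2, and the difference and the remainder each raised 3 and lowered 3, beside 3.40%, 23.2% and 25.3% of all tested genes called. The oxysterol receptor *Gpr183* rose with IL-4 (20.3 ± 1.503 to 35.5 ± 1.46 CPM, log2 fold change 0.81 ± 0.09, adjusted p = 0.000114) and in the remainder (0.67 ± 0.09, adjusted p = 7.59e-05). The formyl peptide receptor *Fpr1* fell from 13.4 ± 5.11 CPM to 4.50 ± 0.367 with IL-4 (-1.57 ± 0.29, adjusted p = 0.00622) and to 4.79 ± 0.805 in the remainder (-1.48 ± 0.29, adjusted p = 0.00155). *Fpr2* fell with IL-4 (-1.25 ± 0.25, adjusted p = 0.00957) and rose in the difference (1.54 ± 0.21, adjusted p = 0.000121). *Cmklr1*, the signalling receptor of chemerin, rose in the difference (1.74 ± 0.29, adjusted p = 0.000580) and remainder (2.02 ± 0.29, adjusted p = 0.000139), as did *Ptafr* (0.63 and 0.64, adjusted p = 6.01e-05 and 4.23e-05). The complement receptors *C5ar1* (-0.58 and -0.93, adjusted p = 0.000418 and 5.17e-06) and *C5ar2* (-0.59 and -0.47, adjusted p = 0.00174 and 0.00719) fell in both, and *C3ar1* in the difference (-0.43, adjusted p = 0.00457).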

How the data were processed

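The deposited file held raw read counts per gene for 12 samples, 4 groups from 3 mice, and 0 columns were left unused. Per the submitters' processing notes, single reads were handled by the authors with FastQC 0.11.7, Trimmomatic 0.36, STAR 2.6.0, SAMtools 1.9 and HTSeq 0.11.1 on mm10, with DESeq2 1.24.0 for their tests; whether counting used strand is not given in the sources used here. Symbols were paired with 48058 of 48526 identifiers.

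The difference and remainder were computed for each mouse from the deposited counts. All 12 libraries were fitted together in edgeR 4.0.16 (R 4.3.3; TMM, glmQLFit and glmQLFTest, Benjamini-Hochberg) on the 12421 genes that reached 10 counts in 3 or more libraries, after testing on simulated data. Alternatives were DESeq2 1.42.0, other scalings, no filter, only the groups compared, the columns as deposited, mouse as a block and each mouse left out. Same-numbered libraries came from the same mouse; over 18 pairs of libraries their deviations correlated at -0.42 to 0.45, with 6 over 0.1.

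The receptors and lists were chosen with earlier results of these data known. The text names the 9 receptors, other receptors past the filter and from each further list, for each comparison with untreated cells, up to 3 called genes with the highest and up to 3 with the lowest log2 fold change, plus the 5 genes most like *Cxcr3*. Marker and treatment genes are given as checks. Some genes that the rule or the marker lists hold are not reported here. Promoters came from RefSeq on GRCm38.p6. Intervals and floors cover counting error or the spread between mice only.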

Additional observations from a re-analysis of the deposited data

Results flagged for a closer look

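With the difference taken as the Wnt3a+IL4 culture, the IL-4 effect differed with and without Wnt3a for 3 receptors by the interaction term of the edgeR fit. The log2 difference of effects was 2.0306 for *Cxcr3*, 2.5745 for *Cx3cr1* and -1.4281 for *Ccr1*. With the remainder taken as that culture, the same term was 0.32 for *Cxcr3*, -0.30 for *Cx3cr1* and -1.37 for *Ccr1*, and edgeR called 0 of the 8 receptors, with 3 at an unadjusted p under 0.05 and 1 called by DESeq2. The labels do not say which reading holds. Groups of 3 libraries were not screened for single libraries that stand apart.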

How the results depend on the processing

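Of 64 receptor results (8 receptors in 8 comparisons), 28 kept direction and side of the threshold in every alternative; of 615 alternative values, 539 did so, 28 lost a call, 30 gained one and 18 changed sign. Causes were not tested except where the setting itself removes libraries or genes. With no low-count filter, genes called rose to 812 and receptors to 6 for IL-4, to 1454 and 4 for the remainder against the difference, to 575 and 2 for the interaction with the remainder as the combination, and to 1505 and 5 with the difference as the combination. With the columns as deposited, which share reads, the counts were 708 genes for IL-4, 0 genes and 0 receptors for the remainder against the difference in edgeR (20 genes and 1 receptor at an unadjusted p under 0.05), and 142 genes and 3 receptors for the first interaction. For that interaction, DESeq2 called 165 genes and 1 receptor, run on the separated libraries and not on the deposited columns. A fit of only the groups compared called 422 genes for the remainder against the difference.

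Leaving out 1 mouse gave 77 to 296 genes and 2 to 4 receptors for IL-4, 1220 to 2117 and 3 to 5 for the difference, 1375 to 3807 and 4 to 6 for the remainder, 97 to 1188 and 1 to 3 for the remainder against the difference, 1208 to 2289 and 3 to 5 for the difference against IL-4, 1043 to 2499 and 4 to 5 for the remainder against IL-4, 0 to 34 and 0 to 1 for the first interaction (834 genes at an unadjusted p under 0.05 without mouse 3) and 265 to 1459 and 2 to 3 for the second.

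Signs turned as follows. With columns as deposited, *Ccr2* was at 0.23 in the remainder, *Cxcr4* at -0.0012 in the remainder against the difference, *Ccr2* at -0.21 in the difference against IL-4, *Cxcr3* at 0.10 and *Cx3cr1* at 0.34 in the remainder against IL-4, and *Ccr7* at -0.40 and *Cx3cr1* at 0.94 in the first interaction. With total counts, *Cxcr4* was at -0.00038 in the remainder against the difference and *Ccr2* at -0.021 in the difference against IL-4. Leaving out 1 mouse gave, in the remainder, -0.42 to 0.40 for *Ccr2* and -0.23 to 1.14 for *Ccr3*; in the remainder against the difference, -0.016 to 0.063 for *Cxcr4*, -0.25 to 0.31 for *Ccr1*, -0.41 to 1.01 for *Ccr3* and -0.12 to 0.033 for *Ccrl2*; for *Ccr2*, -0.089 to 0.086 in the difference against IL-4 and -0.49 to 0.50 in the second interaction.

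With mouse as a replicate block, edgeR called 391, 2659, 2858, 556, 2343, 2316, 11 and 854 genes in the 8 comparisons in the order above, and 3, 4, 5, 3, 5, 6, 0 and 4 receptors (for the 0, 3 receptors had an unadjusted p under 0.05 and DESeq2 without the block called 1). The block turned *Ccr2* to -0.011 in the difference against IL-4, and beyond the receptor calls given in the report it changed no other.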
